A study of Schizosaccharomyces pombe with 12 samples.

Results

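The comparison described here is that of fission yeast cells lacking both med20 and rrp6 with cells lacking med20 alone, that is, the effect of losing Rrp6 in cells that have no Med20. Per gene it is the log2 ratio of the deposited double-deletion mean to its wild-type mean, minus the same ratio for the med20 deletion, so that the wild-type scale cancels. It uses 6 of the 12 samples, 3 of each strain, and the other 6 samples (rrp6Δ and wild type) were used to set the same deletion beside it in cells that have Med20. Of 6888 genes listed, 6871 were in both tables and 5885 had all 4 means of these ratios at a normalised count of 10 or more. Those means are of the double deletion, the med20 deletion and the wild type beside each. The rrp6Δ mean was not part of this minimum. The other 986 were under that minimum and are named below only where said so. At this edge snoR47, SPNCRNA.517 and atf21 were just inside, with lowest means of 10.04, 10.07 and 10.09 and differences of deposited means of -2.71, 1.83 and 1.71. SPNCRNA.1088, SPNCRNA.1552 and SPNCRNA.1609 were just outside, with lowest means of 9.985, 9.967 and 9.949 and differences of 0.57, 0.60 and 0.21.

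Per the labels, the double deletion (med20Δ rrp6Δ) carries med20:natMX, rrp6∆::KanMx6, leu1-32 and a ura4 allele written as ura4-D18, ura4-D19 and ura4-D20 in its 3 samples, with no mating type given. The med20Δ strain is h+ and carries leu1-32, ura4-D18 and med20:NAT. The rrp6Δ strain is h- and is written with rrp6∆::KanMx6 and Otr1R(Sph1)::ura+ besides Ura4 DS/E 216, His2 and Leu1-32, and wild type is h- L972. Cells of all 4 strains were grown at 30 degrees in YEA, a rich glucose medium, and collected in log phase. RNA was selected on oligo(dT) beads and the second cDNA strand was marked with dUTP. For an RNA that normally has no poly(A) tail, the amount present and the part of it with a tail cannot be told apart. In such bulk samples, fewer cells expressing a gene and less RNA per cell cannot be told apart.

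The exonuclease Rrp6 belongs to the nuclear form of the exosome. It trims the 3′ ends of small nucleolar RNA (snoRNA) and other precursors, destroys short-lived non-coding transcripts, and in growing cells removes meiotic mRNAs that the RNA-binding protein Mmi1 has marked. Med20 is a subunit of the head of Mediator, the complex that links transcription factors to RNA polymerase II. The question is which RNAs change when this exonuclease is lost from cells whose Mediator already lacks Med20.

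The counts of the deleted genes went with the labels, and those of a marker gene did not. The rrp6 gene had normalised counts of 1.85, 0.875 and 0.892 in the med20Δ rrp6Δ libraries, against 1210, 1185 and 1501 in med20Δ. The lowest value in each library stands for 1 count, and whether the authors added 1 to zero counts or to all counts is unknown, so values near it may be zeros. The med20 gene had 29.6, 20.1 and 25 in med20Δ rrp6Δ and 6.29, 2.54 and 6.34 in med20Δ, against 713, 686 and 739 in wild type. The pyrimidine gene ura4 had 1.85, 5.25 and 2.68 in med20Δ rrp6Δ, against 2486, 2782 and 2117 in the libraries labelled med20Δ, whose label names a ura4 deletion allele. The groups compared therefore differ in ura4 as well as in rrp6. The M-cell gene mat1-Mc, which marks h- cells, was at 474, 420 and 301 in med20Δ rrp6Δ and at 649, 476 and 525 in the libraries labelled h+ (med20Δ). In the libraries labelled h- it was at 343, 347 and 301 in rrp6Δ and at 357, 349 and 497 in wild type. It was thus not lower in the libraries labelled h+ than in those labelled h-. Between med20Δ rrp6Δ and med20Δ, 3 of 6 tested mating genes (mat1-Mc, mfm2, mfm3, mam1, map3 and ste6) had positive values and 3 had negative ones. These 6 genes are not all specific to M cells, so the count does not tell the mating type. The other marker genes, leu1 and his2, had values of -0.98 and -0.73 in the test described next (limma adjusted p = 0.108 and 0.174).

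The tables hold strain means only, and the whole counts of each library were recovered from the digits of those means. Recovered libraries held 7030536 to 10507706 counts. They are numbered within a strain and cannot be tied to the replicate letters of the labels. In each strain 1 library stood apart from the other 2 along the same component, which held 55.2% of the variance within strains: library 2 of med20Δ rrp6Δ, library 1 of med20Δ, library 2 of rrp6Δ and library 1 of wild type. Of the 5885 genes, 252 could not be split into libraries because their means were too high or no whole counts fitted, which left 5633 for the test (limma on log2 of the normalised count plus 1, Benjamini-Hochberg adjusted p under 0.05). Log2 differences from this test understate the change of genes with low counts.

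Between med20Δ rrp6Δ and med20Δ, 638 of 5633 genes were called as changed, or 11.3%. Because these groups also differ in ura4, the calls cannot be tied to the loss of Rrp6 alone. Called RNAs that are not protein-coding mostly rose. Called protein-coding genes mostly fell under the scaling used here, a balance that depends on the scaling as given below. In the med20Δ rrp6Δ libraries 356 genes were higher than in med20Δ (6.32% of those tested) and 282 were lower (5.01%). Of 974 tested RNAs that are not protein-coding, 232 rose and 7 fell. Of 4659 tested protein-coding genes, 124 rose and 275 fell. The 3 double-deletion libraries lay entirely above the 3 med20Δ libraries for 352 of the 356 genes called higher, and entirely below them for 279 of the 282 called lower. Over all tested genes, called or not, 771 lay entirely above (13.7%) and 1000 entirely below (17.8%), so that separated genes were more often lower and called genes more often higher. The median difference over all tested genes was -0.11 on the log2 scale, with quartiles of -0.43 and 0.29.

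The balance of increases and decreases depends on how the libraries are scaled. With libraries scaled to their total counts the median of all genes was 0.20 and the split was 613 higher and 115 lower. With the median protein-coding gene as the scale the median was 0.02 and the split 436 higher and 187 lower. Without the 4 libraries that stand apart, 521 genes were higher and 781 lower, and 590 of the 638 calls were among them. The count also rests on single libraries, since it was 240 without med20Δ library 3, 278 without library 1 of med20Δ rrp6Δ and 409 without med20Δ library 2.

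The same deletion was also compared in cells that have Med20 (rrp6Δ against wild type, no library shared with the comparison above). There 247 genes were higher, 4.38% of those tested, and 84 were lower, or 1.49%. These strains differ in marker alleles as well. Of the 356 genes higher in med20Δ rrp6Δ than in med20Δ, 176 were also called higher in rrp6Δ than in wild type, which is 49.4% of the first list and 71.3% of the second. Of the 282 lower genes, 30 were also lower with Med20 present, which is 10.6% of the first list and 35.7% of the second. Across the 5633 genes the effects had a Pearson r of 0.72, given as a description over genes that share libraries and scaling. A test of the difference between the effects called 2 genes, 0.0355% of those tested, while 333 genes had an unadjusted p under 0.05 in the same limma fit. Genes called without Med20 and not with it are therefore not shown to depend on Med20.

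**Figure D1:**
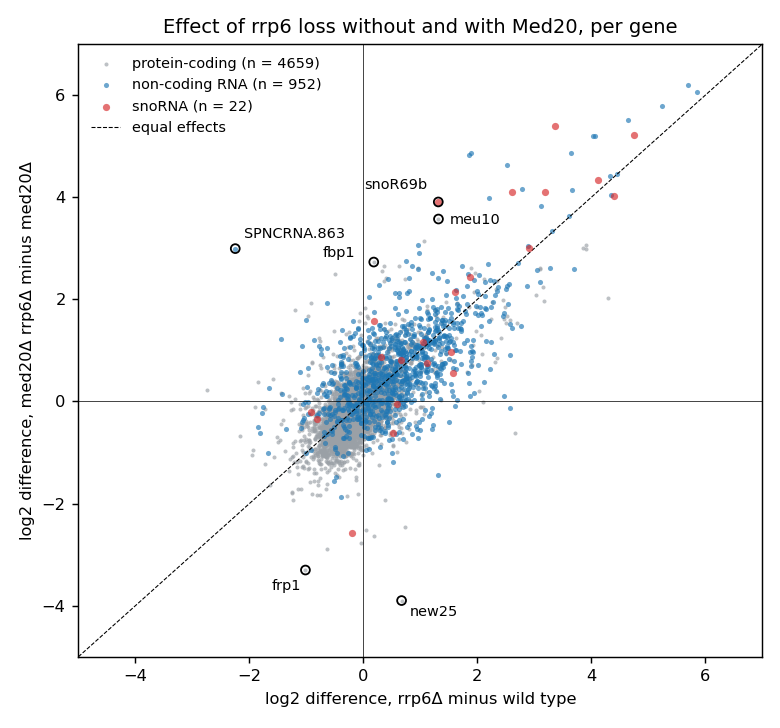
Each point is 1 of 5633 tested genes, placed by the log2 difference of normalised counts between med20Δ rrp6Δ and med20Δ (vertical) and between rrp6Δ and wild type (horizontal), with the dashed line marking equal effects. Most non-coding RNAs and snoRNAs with large effects lie near the line at the upper right, while SPNCRNA.863 (2.99 without Med20, -2.25 with it) and new25 (-3.90 and 0.67) lie far from it.

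The largest increases were in short intergenic and other non-coding RNAs. SPNCRNA.1511, an intergenic RNA of unknown function whose annotation overlaps the end of ape2 on the other strand, had 6691, 1419 and 3051 normalised counts in med20Δ rrp6Δ, against 28.3, 67.3 and 35.5 in med20Δ. SPNCRNA.942, also intergenic, had 4053, 2730 and 3318 in med20Δ rrp6Δ, against 30.4, 73.7 and 50.7 in med20Δ. SPNCRNA.510 had 1788, 925 and 1370 in med20Δ rrp6Δ, against 14.7, 31.8 and 25.4 in med20Δ. For all 3 the lowest double-deletion library was far above the highest med20Δ library. Their log2 differences were 6.20 ± 0.56, 6.07 ± 0.37 and 5.79 ± 0.38 (SE), with limma adjusted p of 1.39e-05, 7.22e-07 and 1.02e-06. The same RNAs were raised by 5.70, 5.85 and 5.24 in rrp6Δ over wild type. SPNCRNA.808 and SPNCRNA.507, which had almost the same counts as each other, rose by 5.20 ± 1.36 and 5.20 ± 1.39 (adjusted p = 0.0274 and 0.0286). The calls of both were lost without library 1 or 3 of either strain, where the adjusted p reached 0.117 and 0.124.

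Increases were found in all 3 annotated classes of longer non-coding RNA. Of 324 tested intergenic RNAs, 107 rose (33.0%) and none fell, with a median difference of 0.87. In rrp6Δ over wild type 73 of them rose and 2 fell, with a median of 0.66. Of 500 tested antisense RNAs, 84 rose (16.8%) and 5 fell, with a median of 0.41, while 92 rose and 2 fell with Med20 present. Of 105 other non-coding RNAs that are neither, 32 rose and 1 fell, with a median of 0.72. Without the 4 libraries that stand apart the counts were 123 higher and 3 lower intergenic RNAs, and 108 higher and 17 lower antisense RNAs. All these medians stand against -0.11 for all tested genes, and they were positive under each scaling.

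Summed over 439 intergenic RNAs, the med20Δ rrp6Δ libraries held 119236, 89976 and 98150 normalised counts, and the med20Δ libraries 47254, 50613 and 45278. The sum was 74532, 74912 and 65335 in rrp6Δ, against 51635, 46924 and 47780 in wild type. The sums of med20Δ rrp6Δ thus lay above those of every other strain. Summed over 693 antisense RNAs, the med20Δ rrp6Δ libraries held 87042, 109220 and 91343, against 78482, 71516 and 63725 in med20Δ. No source used here gives the strand setting of the authors' read counting, so reads of an antisense RNA and of its partner gene may not be told apart. SPNCRNA.1017, antisense to the translation release factor gene erf1 over its whole length, had 760, 487 and 602 in med20Δ rrp6Δ, against 30.4, 40.6 and 30.4 in med20Δ. It rose by 4.14 ± 0.33 (adjusted p = 4.58e-06), and by 3.66 in rrp6Δ over wild type. SPNCRNA.1271, SPNCRNA.846 and SPNCRNA.1273, also antisense, rose by 2.69, 2.65 and 2.43 (adjusted p = 0.00489, 0.000953 and 0.000844).

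Few non-coding RNAs fell. The antisense RNA SPNCRNA.1292 had 54.3, 55.2 and 84.8 in med20Δ rrp6Δ, against 272, 196 and 245 in med20Δ, a fall by 1.88 on the log2 scale (adjusted p = 0.00264). SPNCRNA.1690 and SPNCRNA.1488, also antisense, fell by 1.47 and 1.19 (adjusted p = 0.00299 and 0.00693). SPNCRNA.1298, antisense to SPCC569.02c, was at 26.5, 22.8 and 17.9 in med20Δ rrp6Δ, against 67.1, 66.0 and 53.3 in med20Δ, and at 98.9, 86.9 and 157 in rrp6Δ, against 30.2, 49.6 and 57.1 in wild type. It thus fell without Med20 (-1.44, adjusted p = 0.0134) and rose with it (1.31, adjusted p = 0.0318), while the difference between these effects missed the threshold (adjusted p = 0.0571). SPNCRNA.298 fell by 0.96 (adjusted p = 0.0489), a call lost in 11 of the 12 fits that left out 1 library, where the adjusted p reached 0.148.

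**Figure D2:**
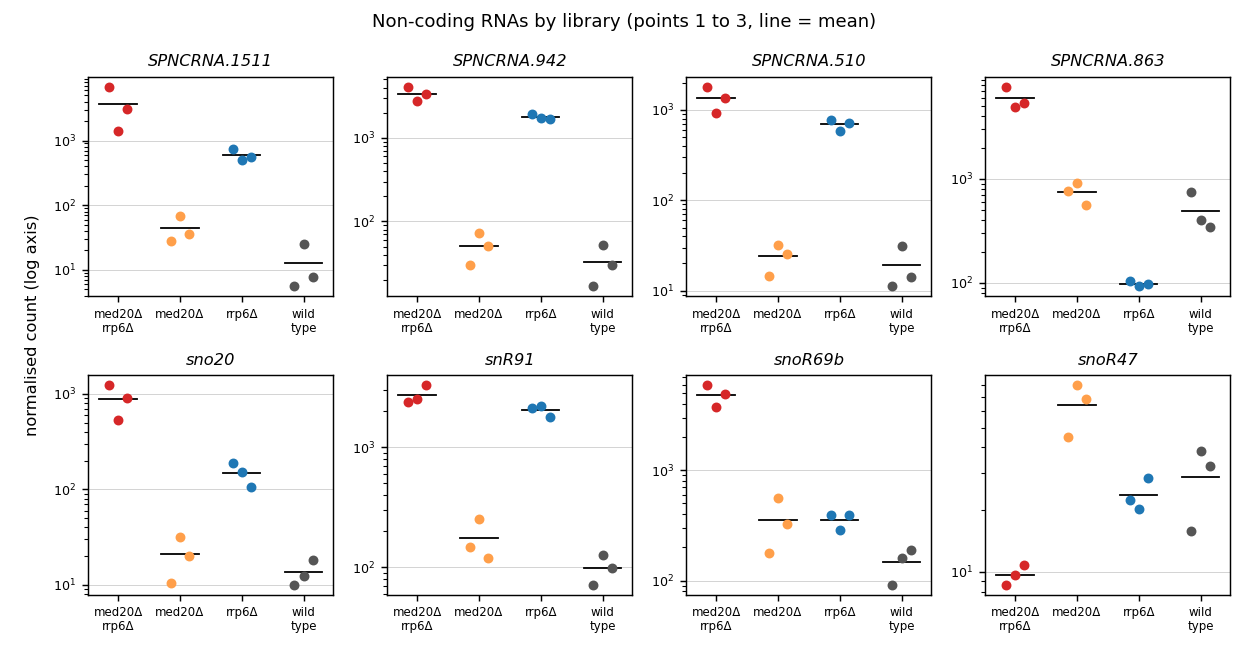
Normalised counts of 8 non-coding RNAs in the 3 libraries of each strain (points in the order of library 1 to 3, line at the mean, log axis). The med20Δ rrp6Δ points lie above all med20Δ points in each panel other than snoR47, where they lie below (8.64 to 10.7 against 45.1 to 80.0), and for SPNCRNA.863 the rrp6Δ points are the lowest (92.6 to 103).

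SnoRNAs guide the chemical modification of ribosomal RNA, and Rrp6 trims the ends of their precursors. Of 54 snoRNA genes, 23 reached the minimum and 22 were tested, of which 9 rose and 1 fell, with a median difference of 1.37. In rrp6Δ over wild type 6 of the 22 rose and none fell, with a median of 1.42. With the 4 libraries that stand apart left out, 11 rose and 1 fell. Summed over the 50 snoRNA genes split into libraries, med20Δ rrp6Δ held 21488, 12000 and 19538 normalised counts and med20Δ held 2888, 4664 and 3188. The sums were 8731, 6525 and 7326 in rrp6Δ, against 1763, 2585 and 2239 in wild type. The lowest med20Δ rrp6Δ sum was above the highest of the other strains. Sequences of 3 snoRNAs that rose are shown because they stand for both guide families. The first is a box C/D RNA, a guide for ribose methylation, with the C box (TGATGA) and the D box (CTGA) in capitals. The other 2 are box H/ACA RNAs, guides for pseudouridine formation, with the ACA box near the 3′ end in capitals. They are the RefSeq genes that match the identifiers in the tables, on the ASM294v3 assembly at chrI:4154912-4155002 (plus strand), chrI:3316466-3316609 (minus strand) and chrI:2330437-2330647 (minus strand), written 5′ to 3′ along the RNA.
snoR69b: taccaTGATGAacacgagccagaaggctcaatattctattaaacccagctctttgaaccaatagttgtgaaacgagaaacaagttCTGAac
snR91: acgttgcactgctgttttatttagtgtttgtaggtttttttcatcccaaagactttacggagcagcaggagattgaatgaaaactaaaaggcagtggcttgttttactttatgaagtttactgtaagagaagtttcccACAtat
snR98: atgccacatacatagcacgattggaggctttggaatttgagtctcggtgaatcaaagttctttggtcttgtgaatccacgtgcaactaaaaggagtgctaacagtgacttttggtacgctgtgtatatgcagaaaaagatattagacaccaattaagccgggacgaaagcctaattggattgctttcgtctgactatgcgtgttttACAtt

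The box C/D RNA snoR69b had 5893, 3735 and 4935 normalised counts in med20Δ rrp6Δ, against 177, 556 and 323.5 in med20Δ. In cells with Med20 it had 395, 285 and 389 in rrp6Δ, against 91.7, 161 and 190 in wild type. The double deletion was far above every other strain, whose ranges overlapped between med20Δ and rrp6Δ. The log2 difference was 3.91 ± 0.37 without Med20 (limma adjusted p = 2.15e-05) and 1.31 with it (adjusted p = 0.0561), and the difference between these effects missed the threshold (2.59 ± 0.53, adjusted p = 0.142). The box H/ACA RNA snR91 had 2397, 2546 and 3275 in med20Δ rrp6Δ, against 148, 253 and 121 in med20Δ, and 2111, 2227 and 1799 in rrp6Δ, against 71.6, 125 and 98.7 in wild type. It rose by 4.03 ± 0.28 without Med20 (adjusted p = 1.59e-06) and by 4.39 with it. The rrp6Δ libraries lay just below those of the double deletion. SPNCRNA.901 covers 136 of the 144 bases of snR91 on the same strand, so reads of these genes may not be told apart.

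The box H/ACA RNA snR98 had 1289, 557 and 1412 in med20Δ rrp6Δ, against 15.7, 52.1 and 21.6 in med20Δ, and rose by 5.21 ± 0.70 (adjusted p = 0.00055). The intergenic RNA SPNCRNA.814 covers all 211 bases of snR98 on the same strand and had nearly the same counts, so its rise of 5.52 ± 0.61 (adjusted p = 0.0001) is not a separate observation. The snoRNA sno20 had 1229, 536 and 913 in med20Δ rrp6Δ, against 10.5, 31.8 and 20.3 in med20Δ, and rose by 5.40 ± 0.41 (adjusted p = 3.79e-06), against 3.37 with Med20. All 172 bases of sno20 overlap the protein-coding gene SPBC1921.04c on the other strand, so reads of either strand may count towards it. The gene sno530 and snR30 (also called U17, needed for 18S rRNA processing) rose by 4.34 ± 0.64 and 4.11 ± 0.70 (adjusted p = 0.000933 and 0.00264). Smaller rises were found for snR33 (3.01), sno16 (2.43) and snR94 (2.14), of which sno16 lost its call without library 1 or 3 of med20Δ or library 1 of med20Δ rrp6Δ and snR94 also without library 3 of med20Δ rrp6Δ, with adjusted p of up to 0.0773 and 0.116. The value for snR92 was 4.11 ± 1.27 (adjusted p = 0.052). The exception in direction was the box C/D RNA snoR47, with 8.64, 9.63 and 10.7 in med20Δ rrp6Δ, against 45.1, 80.0 and 68.5 in med20Δ. It fell by 2.59 ± 0.38 (adjusted p = 0.000933), and its lowest strain mean of 10.04 lies just inside the minimum. All 84 bases of snoR47 lie within the annotated protein-coding gene fta3 on the same strand, so reads of these genes may not be told apart.

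A few further RNAs are named here that were picked after their values were seen. The RNA of RNase MRP, mrp1, which acts in ribosomal RNA processing, had 3467, 2052 and 2817 in med20Δ rrp6Δ, against 60.8, 237 and 59.6 in med20Δ. It rose by 4.82 ± 0.45 (limma adjusted p = 2.15e-05) without Med20 and by 1.85 with it (adjusted p = 0.0288), and the difference between these effects was not called (adjusted p = 0.167). SPNCRNA.727 had nearly the same counts as mrp1 and rose by 4.86. The RNA of RNase P, rrk1, which trims tRNA precursors, had 2919, 1327 and 1407 in med20Δ rrp6Δ, against 49.3, 138 and 50.7 in med20Δ. It rose by 4.63 ± 0.39 (adjusted p = 8.2e-06), and by 2.53 with Med20. Some abundant RNAs could not be split into libraries, and for them only the authors' deposited means are given. The deposited tables are scaled separately, with wild-type means 1.21 times higher beside the double deletion than beside med20Δ, so double-deletion means were divided by this ratio here and below. On that scale sno12 was at 25843 in med20Δ rrp6Δ and 473 in med20Δ, a log2 difference of 5.77 with no test. The intergenic RNA SPNCRNA.1095 was at 83532 in med20Δ rrp6Δ and 3738 in med20Δ (4.48).

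No tRNA gene reached the minimum in all 4 means, and none was tested. Of the 164 tRNA genes in both tables, 154 had a higher mean normalised count in med20Δ rrp6Δ than in med20Δ. The median tRNA mean was 9.81 in med20Δ rrp6Δ and 1.97 in med20Δ, where 63 genes were at the lowest value of 1 count in every library. A mean of 10 was reached by 81 tRNA genes in med20Δ rrp6Δ, against 11 in med20Δ. All 3 double-deletion libraries lay above all med20Δ libraries for 86 of the 164 genes and below them for 1, against 17.3% and 15.6% of all 6619 genes split into libraries. That 1 gene was at 1 count in every double-deletion library. The normalised value of 1 count is lower in each double-deletion library than in any med20Δ library. Genes at 1 count throughout thus lie below by scaling alone, also within the 15.6%. Summed over the tRNA genes, med20Δ rrp6Δ held 8952, 2613 and 6409 normalised counts and med20Δ held 343, 928 and 530. The sums were 391, 307 and 359 in rrp6Δ and 231, 299 and 386 in wild type, so the sums of the double deletion were above those of all other strains, and library 2, which stands apart, was its lowest. Copies of tRNA genes share sequence, and no source used here says how the authors assigned reads to copies. Neither of 2 tested snRNA genes was called by limma, and 1 had an unadjusted p under 0.05. Their log2 differences were 3.99 for snu32 and 1.19 for snu6 (limma adjusted p = 0.102 and 0.616). Summed over 7 snRNA genes, med20Δ rrp6Δ held 4362, 220 and 1795 normalised counts and med20Δ held 25.2, 262 and 129. The strains overlapped in these sums. With a mean of 10 over the 12 libraries as the minimum, or with no filter, limma called 5 of 7 higher (median 3.64). Of the 22 tested rRNA genes none was called by limma, and none had an unadjusted p under 0.05. The 3 copies of 18S rRNA that could not be split had means of 98186 to 98290 in med20Δ rrp6Δ, against 30620 to 30725 in med20Δ, on the scale of the med20Δ table and with no test.

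Meiotic mRNAs that Mmi1 marks for the exosome in growing cells rose as a group. All 6 of the Mmi1 targets that were tested rose, of 11 on the list, with a median of 2.11, and all 6 rose with Med20 present (median 2.47). All 6 were also called without the 4 libraries that stand apart. Mmi1 binds copies of the short motif TNAAAC, where N is any base. Windows of 30 bases with the motif in capitals are shown for the 6 tested targets, because the motif is what the group shares. Each window is the one with the most matches in the gene as annotated in RefSeq ASM294v3, the first where several tie. The windows were thus picked for their matches, and that of rec10 holds 1. They lie at chrII:1473909-1473938 (plus strand), chrI:4535255-4535284 (minus), chrII:2538096-2538125 (plus), chrII:899369-899398 (plus), chrI:2446807-2446836 (plus) and chrI:4303846-4303875 (minus).
mei4: atagtagtTTAAACtcaaatattgTTAAAC
ssm4: ctgctttgacagaagTTAAACattTGAAAC
spo5: cacatacTCAAACTTAAACcaacaTAAAAC
num1: aaaataaacaagtcaTTAAACtttTCAAAC
mug8: tccgtagatcttTTAAACgtatttTAAAAC
rec10: atacaagtttcacgcacaatcaacTGAAAC

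Matches were counted over the whole annotated gene, in the direction of its RNA. The median over 5124 protein-coding genes was 1.65 matches of TNAAAC per kilobase, with quartiles of 0.999 and 2.37. At least 1 match was found in 90.7% of genes. The 6 tested targets had 4.35 (rec10), 4.96 (mei4), 5.66 (mug8), 5.74 (num1), 6.3 (ssm4) and 6.65 (spo5) matches per kilobase. Matches describe the sequence and do not show binding.

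The meiotic forkhead factor gene mei4 had 213, 356 and 321 normalised counts in med20Δ rrp6Δ, against 85.0, 63.5 and 73.6 in med20Δ, and 349, 454 and 437 in rrp6Δ, against 44.8, 36.1 and 55.8 in wild type. It rose by 1.97 ± 0.26 (limma adjusted p = 0.000512) without Med20 and by 3.17 with it, and the difference between these effects was not called (adjusted p = 0.489). The dynactin gene ssm4, which acts in nuclear movement of meiosis, had 144, 289 and 274 in med20Δ rrp6Δ, against 52.4, 52.1 and 36.8 in med20Δ. It rose by 2.25 ± 0.32 (adjusted p = 0.000812). The linear-element gene rec10, needed for meiotic recombination, had 623, 686 and 935 in med20Δ rrp6Δ, against 231, 274 and 221 in med20Δ, and rose by 1.61 ± 0.26 (adjusted p = 0.00162). The dynein anchor gene num1 and mug8 rose by 2.62 ± 0.34 and 2.52 ± 0.44 (adjusted p = 0.0004 and 0.0031). The meiotic RNA-binding protein gene spo5 rose by 1.84 ± 0.52 (adjusted p = 0.0355), a call lost in 6 of the 12 fits that left out 1 library (any med20Δ rrp6Δ library, med20Δ library 2 or 3, or rrp6Δ library 3), where the adjusted p reached 0.149.

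The other 5 targets were under the minimum and were not tested. The meiotic cohesin gene rec8 had 28.4, 31.5 and 29.5 in med20Δ rrp6Δ, against 10.5, 5.08 and 12.7 in med20Δ. The meiotic cyclin gene crs1 had 20.4, 28.9 and 25 in med20Δ rrp6Δ, against 6.29, 8.89 and 3.81 in med20Δ. The non-coding RNA sme2, which titrates Mmi1 at the onset of meiosis, had 427, 104 and 203 in med20Δ rrp6Δ, against 7.34, 3.81 and 1.27 in med20Δ. For mug9 the values were 56.2, 137 and 74.1 in med20Δ rrp6Δ and 26.2, 3.81 and 14 in med20Δ, and for mug10 they were 82.7, 85.8 and 105 in med20Δ rrp6Δ and 32.5, 34.3 and 29.2 in med20Δ. In all 5 the double-deletion libraries lay above the med20Δ libraries.

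Meiotic genes beyond the Mmi1 list included the largest increases among protein-coding genes. The spore-wall gene meu10 had 677, 564 and 681 in med20Δ rrp6Δ, against 45.1, 77.5 and 41.9 in med20Δ, and 131, 147 and 154 in rrp6Δ, against 40.3, 75.6 and 61.0 in wild type. It rose by 3.57 ± 0.29 (adjusted p = 4.58e-06), the largest protein-coding rise, and by 1.32 with Med20, while the difference between the effects missed the threshold (2.26 ± 0.41, adjusted p = 0.0661). SPNCRNA.1238 and SPNCRNA.1237 overlap 1850 and 1021 of the 3180 bases of meu10 on the other strand, so reads of either strand may count towards it. The linear-element gene rec25 had 236, 229 and 351 in med20Δ rrp6Δ, against 33.6, 20.3 and 43.1 in med20Δ, and rose by 3.07 ± 0.31. The meiotic cohesin gene rec11 had 139, 199 and 281 in med20Δ rrp6Δ, against 38.8, 50.8 and 55.8 in med20Δ, and 304, 245 and 289 in rrp6Δ, against 15.7, 11.3 and 13.0 in wild type. It rose by 2.03 ± 0.29 without Med20 and by 4.30 with it, and this difference, in the other direction from that of meu10, also missed the threshold (-2.27 ± 0.41, adjusted p = 0.0661). The shugoshin gene sgo1, which protects cohesin in meiosis, rose by 1.22 (adjusted p = 0.00638).

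Of the 9 tested genes of meiotic cohesin and recombination, of 20 on the list, 4 rose and none fell (median 0.99). The same counts were found with Med20 present. Of the 93 tested genes named for meiotic expression, 14 rose and 2 fell, with a median of 0.14, against 9 higher and none lower with Med20. The risen genes include rec10 in the first list and mug8 in the second, both already counted as Mmi1 targets. Without the 4 libraries that stand apart, these lists had 4 higher and 1 lower, and 15 higher and 5 lower. In the second list mug45 and meu1, whose products are unknown, rose by 2.99 ± 0.23 and 3.0 ± 0.34 (limma adjusted p = 3.79e-06 and 0.000109). With Med20 they rose by 3.90 and 3.85. Nitrogen starvation and pheromone response genes, which also act before meiosis, had no call among 16 and 13 tested, by limma, with 3 and 4 genes at an unadjusted p under 0.05. The meiotic regulator mei2 had 1073, 572 and 543 in med20Δ rrp6Δ, against 488, 220 and 178 in med20Δ (1.37 ± 0.46, adjusted p = 0.0684). The ammonium transporter gene amt3 had a difference of 1.21 (adjusted p = 0.0532) and mei3 of 1.23 (adjusted p = 0.317).

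**Figure D3:**
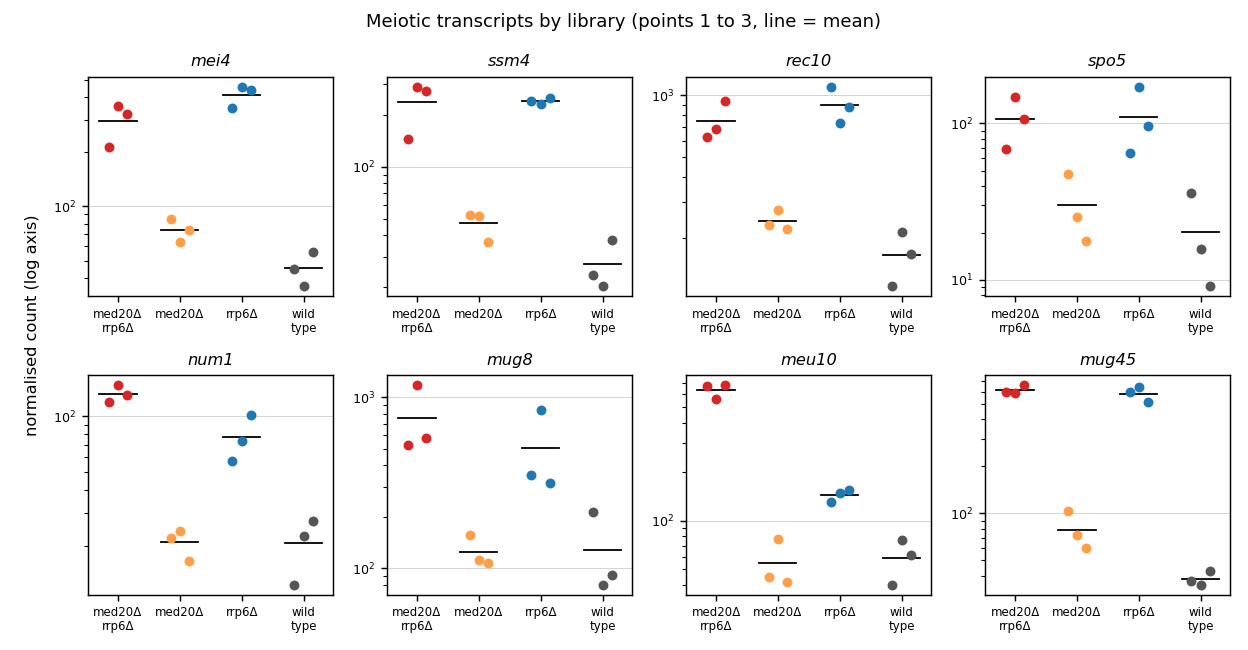
Normalised counts of 8 meiotic genes in the 3 libraries of each strain (points in the order of library 1 to 3, line at the mean, log axis that differs by panel). The med20Δ rrp6Δ points lie above the med20Δ points in all panels, and for meu10 (564 to 681) they also lie above the rrp6Δ points (131 to 154).

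Some iron uptake genes were lower than in med20Δ. Of 14 tested genes for iron and copper uptake, 5 fell and none rose, with a median of -0.88, while none was called in rrp6Δ over wild type (median -0.20, limma, 3 genes at an unadjusted p under 0.05). The ferric reductase gene frp1, whose product reduces iron at the cell surface, had 89.5, 58.7 and 185 in med20Δ rrp6Δ, against 1320, 1041 and 696.5 in med20Δ. In cells with Med20 it had 237, 293 and 275 in rrp6Δ, against 1152, 375 and 368 in wild type. The double deletion was the lowest of the 4 strains and med20Δ overlapped the highest wild-type library. It fell by 3.30 ± 0.45 (limma adjusted p = 0.000638). The siderophore transporter gene str1 had 499, 1110 and 3164 in med20Δ rrp6Δ, against 10115, 6426 and 8653 in med20Δ, and 1279, 4666 and 3216 in rrp6Δ, against 8330, 2738 and 912 in wild type. It fell by 2.77 ± 0.74 (adjusted p = 0.0296).

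The iron permease gene fip1 had 280, 344 and 1648 in med20Δ rrp6Δ, against 6505, 2500 and 2388 in med20Δ. In rrp6Δ it had 392, 1157 and 1220, against 2291, 526 and 309 in wild type. Its partner in high-affinity uptake, the multicopper oxidase gene fio1, had 329, 383 and 1424 in med20Δ rrp6Δ, against 4731, 2973 and 2365 in med20Δ. In rrp6Δ fio1 had 397, 741 and 1139, against 1916, 574 and 277 in wild type. For both genes med20Δ lay above the other strains, and the double deletion overlapped rrp6Δ and wild type. From med20Δ, fip1 and fio1 fell by 2.64 ± 0.77 and 2.51 ± 0.66 (limma adjusted p = 0.0411 and 0.0276). The siderophore transporter gene str2 fell by 0.88 ± 0.26 (limma adjusted p = 0.0444). For str3, a further siderophore transporter, the value was -2.46 ± 1.12 (limma adjusted p = 0.168). It had 35.8, 80.5 and 266 in med20Δ rrp6Δ and 910.5, 434 and 336 in med20Δ. In rrp6Δ str3 had 90.7, 322 and 226, against 1085, 70.0 and 18.2 in wild type. The copper transporter genes ctr4, ctr5 and ctr6 had values of -0.83, -0.55 and -0.01, and the iron-sensing repressor gene fep1 had 0.07. These genes varied within strains. Library 1 of med20Δ and library 1 of wild type, which stand apart, were each the highest of their strain for frp1, str1, fip1 and fio1. Without the 4 libraries that stand apart, 7 of the 14 were called lower (3 under scaling to total counts), but the adjusted p was 0.0965 for fip1 and 0.0623 for fio1. The log2 differences of frp1, str1, fip1 and fio1 without those libraries were -2.72, -2.57, -1.84 and -1.95. The calls of str1, fio1 and fip1 were also lost without any med20Δ library and without library 1 or 2 of med20Δ rrp6Δ (adjusted p of up to 0.143, 0.126 and 0.176), and that of str2 in 8 of the 12 such fits (up to 0.18).

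The repressor Fep1 is known to bind sites with AGATAA or TGATAA when iron is plentiful. Promoters of 3 of the genes that fell are shown with matches on either strand in capitals, since the group shares this regulator. Each runs from 250 bases before to 50 bases after the annotated gene start in RefSeq ASM294v3, at chrII:162343-162642 (minus strand), chrII:2704407-2704706 (plus) and chrI:4234822-4235121 (plus), in the direction of the gene.
frp1: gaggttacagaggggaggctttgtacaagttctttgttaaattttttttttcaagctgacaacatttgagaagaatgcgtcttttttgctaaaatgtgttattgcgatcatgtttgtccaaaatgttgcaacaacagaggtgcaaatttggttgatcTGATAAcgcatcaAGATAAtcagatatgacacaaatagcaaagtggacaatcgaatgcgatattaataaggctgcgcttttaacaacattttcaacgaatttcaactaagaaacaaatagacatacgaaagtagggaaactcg
str1: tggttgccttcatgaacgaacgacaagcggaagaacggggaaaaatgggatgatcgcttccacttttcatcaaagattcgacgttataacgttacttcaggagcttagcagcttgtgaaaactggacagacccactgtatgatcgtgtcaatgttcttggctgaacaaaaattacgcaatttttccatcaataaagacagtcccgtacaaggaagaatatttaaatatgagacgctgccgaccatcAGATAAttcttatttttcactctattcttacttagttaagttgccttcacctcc
fio1: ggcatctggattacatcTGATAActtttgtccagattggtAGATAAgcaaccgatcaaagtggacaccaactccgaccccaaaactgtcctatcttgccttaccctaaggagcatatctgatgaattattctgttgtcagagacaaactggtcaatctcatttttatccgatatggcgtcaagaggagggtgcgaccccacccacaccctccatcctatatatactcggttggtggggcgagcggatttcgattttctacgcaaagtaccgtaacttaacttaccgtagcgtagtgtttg

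Of 5123 promoters of protein-coding genes defined in this way, 44.1% held at least 1 match on either strand and 12.2% held 2 or more. All 5 iron genes called lower had a match, as did fep1, pcl1 and php4, which were not called. The other 6 had none, among them str3 (-2.46, not called), and the split rests on calls of which 4 were lost with single libraries left out. The genes fip1 and fio1 are divergent, with starts 304 bases apart, and share the same 2 matches. These are letters in a window, not sites shown to be bound.

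Genes of carbon use split by level. Of 22 genes of glycolysis, fermentation and gluconeogenesis, 21 reached the minimum, and the 14 most abundant could not be split into libraries. Of the 7 tested, 4 rose and 1 fell, with none higher and 1 lower by limma in rrp6Δ over wild type. Fructose-1,6-bisphosphatase fbp1, the gluconeogenic enzyme that glucose normally represses, had 1031, 533 and 618 in med20Δ rrp6Δ, against 96.5, 108 and 109 in med20Δ. It had 73.4, 173 and 62.8 in rrp6Δ, against 115, 51.9 and 90.9 in wild type. The double-deletion libraries were thus well above all 9 others. The rise was 2.73 ± 0.39 (limma adjusted p = 0.000854) without Med20, and the value was 0.18 with it, while the difference between the effects was not called (2.55 ± 0.55, adjusted p = 0.167). An antisense RNA covers all of fbp1, so reads of either strand may count towards it. The pyruvate decarboxylase gene pdc201 had 2291, 488 and 2858 in med20Δ rrp6Δ, against 237, 272 and 340 in med20Δ, and rose by 2.39 ± 0.52 (adjusted p = 0.011). The enolase gene eno102 and the glycerol dehydrogenase gene gld1 rose by 2.35 and 1.92 (adjusted p = 0.0186 and 0.042), and the hexokinase gene hxk1 fell. The call of pdc201 was lost without library 1 of med20Δ rrp6Δ (adjusted p = 0.0587), that of eno102 also without med20Δ library 2 or 3 (up to 0.0956), and that of gld1 in 8 of the 12 such fits (up to 0.177).

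The abundant glycolytic genes are described by deposited means, with no test. All 14 had negative log2 differences once the scale of the tables was taken into account, from -1.94 to -0.02, with a median of -1.41, against -0.76 for the 252 genes that could not be split and -0.62 for the same 14 in rrp6Δ over wild type. Glyceraldehyde-3-phosphate dehydrogenase tdh1 was at 117695 in med20Δ rrp6Δ and 451549 in med20Δ. Aldolase fba1 was at 144959 in med20Δ rrp6Δ and 499403 in med20Δ, and alcohol dehydrogenase adh1 at 43390 in med20Δ rrp6Δ and 116692 in med20Δ. For gpd3 the means were 41654 in med20Δ rrp6Δ and 42182 in med20Δ. Abundant genes as a whole had lower values: of 346 genes whose 4 means averaged over 10000, the median difference was -0.76, and of the 103 of them that were tested 34 fell and none rose. The 139 cytosolic ribosomal protein genes had a median of -0.73 by deposited means, with 128 negative, while of the 30 tested 1 rose (rpl3002, 1.07) and 1 fell (rpl1603, -0.77), with none lower under scaling to total counts. The call of rpl3002 was lost without library 1 or 2 of either strain (adjusted p of up to 0.0805) and without the 4 libraries that stand apart (0.0864), and that of rpl1603 in 5 of the 12 fits that left out 1 library (up to 0.0775). By deposited means 501 of the 5885 genes, or 8.51%, had differences of 1 or more and 201, or 3.42%, of -1 or less.

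Of 20 tested core stress genes, 4 rose and 1 fell, with a median of 0.29, and 1 rose in rrp6Δ over wild type. The 4 include fbp1, already counted among the carbon genes. The metallothionein gene zym1, whose product binds zinc and other metals, had 12088, 5614 and 7515 in med20Δ rrp6Δ, against 1805, 1460 and 766 in med20Δ, and 594, 405 and 306 in rrp6Δ, against 262, 263 and 500 in wild type. It rose by 2.66 ± 0.38 (limma adjusted p = 0.000854) without Med20, and the value was 0.36 with it (difference between the effects 2.29 ± 0.54, adjusted p = 0.209). The glutathione S-transferase gene gst2 rose by 1.31 (adjusted p = 0.0101) and the protease inhibitor gene pbi2 by 1.23 (adjusted p = 0.0332). The call of gst2 was lost without med20Δ library 3 (adjusted p = 0.0556). The call of pbi2 was lost without library 1 or 3 of med20Δ or library 1 of med20Δ rrp6Δ (adjusted p of up to 0.15), and without the 4 libraries that stand apart (adjusted p = 0.0552).

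**Figure D4:**
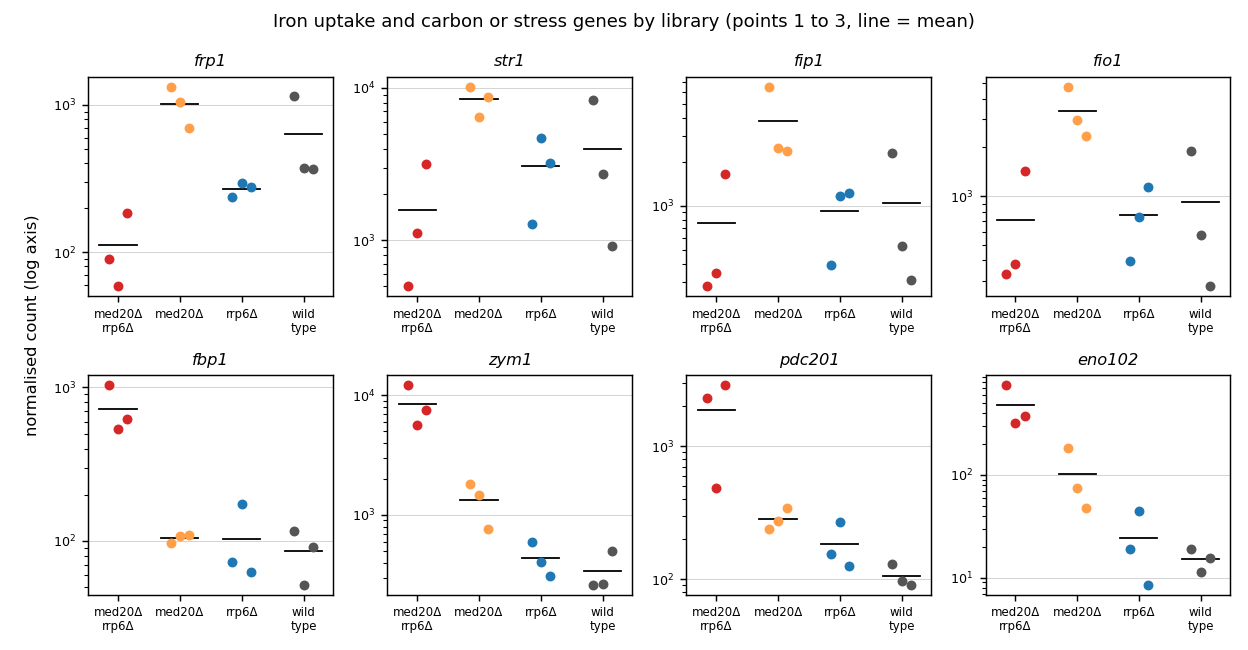
Normalised counts of 4 iron uptake genes (top) and 4 carbon or stress genes (bottom) in the 3 libraries of each strain (points in the order of library 1 to 3, line at the mean, log axis that differs by panel). The med20Δ rrp6Δ points lie below the med20Δ points for the iron genes and above them for the other 4, and for fbp1 they lie above all other strains (533 to 1031).

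Genes of the respiratory chain and ATP synthase, the mitochondrial machinery of energy supply, rose in 7 of 45 tested, with none lower and a median of 0.32, and limma called none with Med20 present, with 3 at an unadjusted p under 0.05. The cytochrome c oxidase gene cox12 had 1383, 1269 and 1058 in med20Δ rrp6Δ, against 570, 606 and 553 in med20Δ, and rose by 1.09 ± 0.21 (adjusted p = 0.0059). The ATP synthase genes atp18 and atp7 and the cytochrome reductase gene qcr8 rose by 1.33, 0.89 and 0.86 (adjusted p = 0.0473, 0.0224 and 0.0365). Of these 4, only cox12 was still called in all 12 fits that left out 1 library, and the adjusted p of the others reached 0.192, 0.115 and 0.166. Without the 4 libraries that stand apart, 7 genes of the list were higher and 3 lower, but atp18, atp7 and qcr8 were not called (adjusted p = 0.186, 0.0654 and 0.0689). With only the 6 libraries compared 1 gene was called higher, and under scaling to total counts 15 were higher and none lower.

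Some genes of cell separation and of S phase fell. Of 9 tested cell separation genes, whose products help to divide the septum between daughter cells, 4 fell, all 9 values were negative and the median was -1.05. In rrp6Δ over wild type 1 fell (median -0.76). The septum glucanase gene eng1 had 386, 621 and 1205 in med20Δ rrp6Δ, against 1623, 2081 and 3515 in med20Δ, and 4986, 5417 and 6261 in rrp6Δ, against 10929, 15398 and 13757 in wild type. Each strain thus held its own range, with the double deletion lowest. It fell by 1.79 ± 0.36 (adjusted p = 0.00816), adg1 by 1.82 (adjusted p = 0.00306), adg2 by 1.2 (adjusted p = 0.0253) and the chitin synthase regulator gene cfh4 by 1.05 (adjusted p = 0.0105). Of these, adg2 lost its call without med20Δ library 2 or 3 or library 1 or 2 of med20Δ rrp6Δ (up to 0.122) and cfh4 without med20Δ library 3 (0.0607). Without the 4 libraries that stand apart 7 of the 9 were called lower.

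Of 12 tested S-phase genes under the MBF factor, 4 fell, all 12 values were negative and the median was -0.65, and limma called none with Med20 present (median -0.43, 3 at an unadjusted p under 0.05). The ribonucleotide reductase gene cdc22, which makes the precursors of DNA, had 3266, 6151 and 4210 in med20Δ rrp6Δ, against 9356, 9480 and 11081 in med20Δ, and fell by 1.18 ± 0.24 (adjusted p = 0.00893). The MBF activator gene rep2, the replication licensing regulator gene cdt2 and the mitotic inhibitor kinase gene mik1 fell by 1.19, 0.94 and 0.65 (adjusted p = 0.031, 0.0347 and 0.046). Those 3 calls were lost in 3, 5 and 11 of the 12 fits that left out 1 library, with adjusted p of up to 0.145, 0.139 and 0.187. A fit without the 4 libraries that stand apart called 8 of the 12 lower, and scaling to total counts left 2 calls (median -0.34).

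Chaperone genes fell in 5 of 20 tested, with none higher and a median of -0.46, against none called by limma with Med20 (3 at an unadjusted p under 0.05). Under scaling to total counts 1 was lower and 1 higher (median -0.16), and a limma fit of only the 6 libraries compared called none, with adjusted p of 0.059 to 0.0951 for the 4 genes named next. The 5 included mcp60, the mitochondrial chaperonin (-1.0, adjusted p = 0.0256), and the cytosolic chaperonin subunits cct7 (-0.88), cct5 (-0.80) and cct4 (-0.79), and each of these 4 calls was lost without library 1 of med20Δ rrp6Δ or library 2 or 3 of med20Δ, and those of cct5 and cct4 also without med20Δ library 1 (adjusted p of up to 0.121). The fatty acid synthase gene fas2 had 4217, 6587 and 7847 in med20Δ rrp6Δ, against 20294, 22263 and 26970 in med20Δ, and fell by 1.93 ± 0.26 (adjusted p = 0.00061), and by 1.23 with Med20 (adjusted p = 0.0131). The predicted phosphoketolase gene SPBC24C6.09c had 82.1, 111 and 71.4 in med20Δ rrp6Δ, against 619, 368 and 162 in med20Δ. It fell by 1.93 ± 0.45 (limma adjusted p = 0.0149). With 70.9, 64.9 and 42.8 in rrp6Δ and 66.0, 27.1 and 49.3 in wild type, its med20Δ libraries were the highest of all. The call of SPBC24C6.09c was lost without med20Δ library 1 or 2 or library 1 of med20Δ rrp6Δ (up to 0.0587). Of 7 tested hexose transporter genes 2 fell, ght8 by 1.07 and ght1 by 0.93 (adjusted p = 0.00885 and 0.0176), and the same 2 fell with Med20. The call of ght1 was lost without med20Δ library 2 or 3 or library 3 of med20Δ rrp6Δ (up to 0.0748), and limma called neither with only the 6 libraries compared (adjusted p = 0.0664 and 0.0639).

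For genes of the altered machinery the counts stand against 6.32% higher and 5.01% lower over all tested genes. The medians of the Mediator, exosome and polymerase lists were -0.22, -0.22 and -0.29, against -0.11 for all genes. Of 20 tested Mediator genes 1 fell, med18, whose product sits beside Med20 in the head, with 273, 255 and 268 in med20Δ rrp6Δ, against 488, 624 and 594 in med20Δ (-1.09 ± 0.21, adjusted p = 0.00515). It fell by 1.25 with Med20 present. Of 27 tested exosome and surveillance genes, red5, a zinc-finger gene of nuclear RNA surveillance, rose by 1.09 (adjusted p = 0.00381) and the exosome nuclease gene dis3 fell by 0.78 (adjusted p = 0.03, lost without library 1 or 3 of either strain, up to 0.131). Of 35 tested genes of RNA polymerases I and III 3 fell, the polymerase I genes rpa2 (-1.10) and nuc1 (-0.99) and the TFIIIC gene sfc6 (-0.95). Of these, sfc6 was called in all 12 fits that left out 1 library, and the others were lost without library 1 of med20Δ rrp6Δ, among others (adjusted p of up to 0.131 and 0.102).

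Among other lists, 1 gene was called in each of 7. The glycerophosphodiester transporter gene tgp1, of the phosphate list (8 tested), had 746, 968 and 1705 in med20Δ rrp6Δ, against 220, 215 and 189 in med20Δ. It rose by 2.36 ± 0.27 (adjusted p = 0.000131), and by 2.35 with Med20. The pyrimidine synthesis gene ura1 fell by 1.18 (8 tested), the silencing gene clr2 by 0.99 (22 tested) and the fibrillarin gene fib1 of ribosome biogenesis by 0.98 (67 tested). The aspartic protease gene sxa1 fell by 0.96 (3 mating genes tested, with map2 and mam2). The histone gene hht1 fell by 0.85 (7 tested) and the flocculation regulator gene adn3 by 0.80 (14 tested). Of 17 tested mitosis and cytokinesis genes 2 fell, cdc15 by 0.82 and klp5 by 0.67. These 2 calls were lost in 5 and 4 of the 12 fits that left out 1 library (limma adjusted p of up to 0.133 and 0.12). With only the 6 libraries compared limma called neither (adjusted p = 0.055 and 0.0765). Apart from tgp1 and clr2, each of the single calls in these lists was lost in at least 1 of the 12 fits that left out 1 library, ura1 in 1 (without med20Δ library 3, adjusted p = 0.0753), sxa1 and hht1 in 4, adn3 in 5 and fib1 in 9 (up to 0.132). No call was made by limma among 39 mitochondrial ribosomal protein, 31 proteasome and 12 tRNA processing genes and the 6 mating genes from mat1-Mc to ste6. Of these, 3, 3, 1 and 1 had an unadjusted p under 0.05.

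The 13 Tf2 retrotransposon copies, which share sequence, were not called by limma, but all 13 values were positive, with a median of 1.13, and all 13 had an unadjusted p under 0.05. Tf2-3 had 833, 377 and 1156 in med20Δ rrp6Δ, against 236, 246 and 374 in med20Δ (1.35 ± 0.44, adjusted p = 0.0615). All 13 copies were called higher without the 4 libraries that stand apart, and 3 under scaling to total counts.

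Other protein-coding genes with large increases were gdt1, which encodes a homologue of a human Golgi membrane protein and rose by 3.15 ± 0.53 (adjusted p = 0.00236), and the copper amine oxidase-like gene cao2, which rose by 2.66 ± 0.38 (adjusted p = 0.000854). The gdt1 gene had 937, 759 and 485 in med20Δ rrp6Δ, against 104, 43.2 and 107 in med20Δ, and 523, 1532 and 549 in rrp6Δ, against 811, 255 and 234 in wild type. Its med20Δ libraries were the lowest of all 12. The gene is on a list drawn from clone names near chromosome ends, a broad rule that also takes in frp1. Of 98 tested genes on it 22 rose and 3 fell, with a median of 0.15, against 9 and 9 with Med20 (median -0.13). The predicted amino acid permease gene nrg1 had 671, 832 and 675 in med20Δ rrp6Δ, against 117, 112 and 121 in med20Δ, and rose by 2.62 ± 0.20 (adjusted p = 3.79e-06). SPAC186.04c, annotated as a truncated channel, rose by 2.56 (adjusted p = 0.0101), a call lost without library 1 of med20Δ rrp6Δ (adjusted p = 0.0539).

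**Figure D5:**
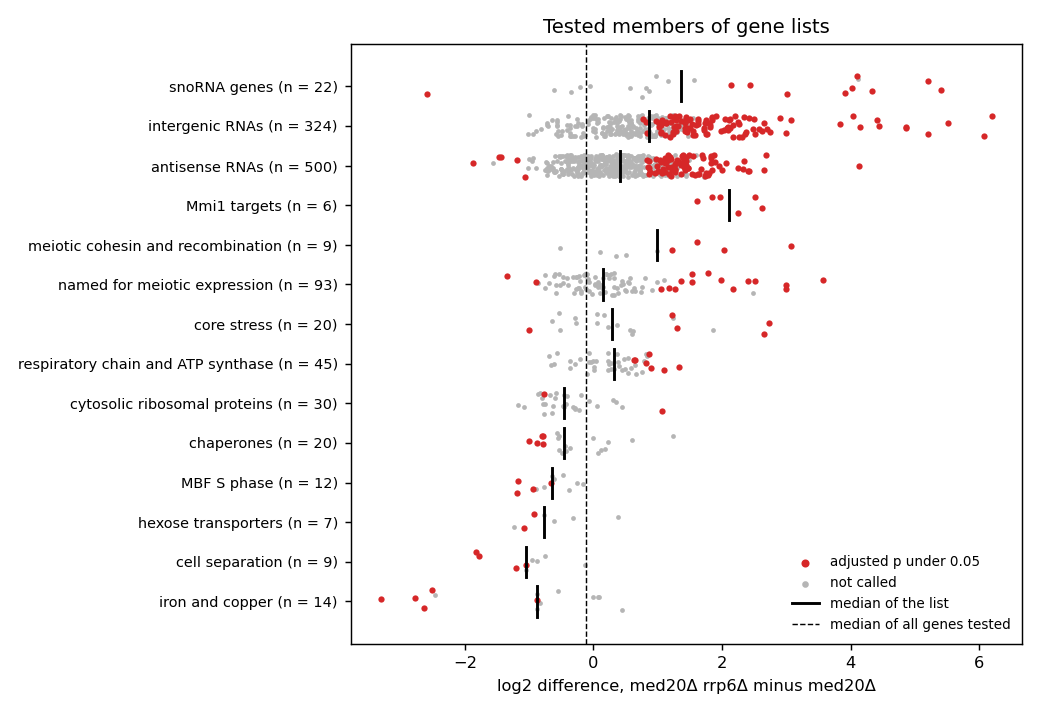
Log2 differences between med20Δ rrp6Δ and med20Δ for the tested members of 14 gene lists (points, red where the adjusted p is under 0.05), with the list median as a bar and the median of all tested genes (-0.11) as a dashed line. Non-coding and Mmi1-target lists lie mostly to the right of the dashed line, and iron, cell separation and MBF lists mostly to the left.

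The effect of losing Rrp6 differed with Med20 for 2 genes. SPNCRNA.863, an intergenic RNA of unknown function that overlaps SPNCRNA.862 on the other strand, had 7637, 4924 and 5311 normalised counts in med20Δ rrp6Δ, against 765, 918 and 562 in med20Δ. In cells with Med20 it had 103, 92.6 and 98.0 in rrp6Δ, against 741, 399.5 and 347 in wild type. It was therefore the highest in the strain that lacks both and the lowest in the strain that lacks Rrp6 alone. The log2 difference was 2.99 ± 0.29 without Med20 (limma adjusted p = 2.15e-05) and -2.25 with it (adjusted p = 0.00033), and the difference between these effects was 5.24 ± 0.41 (adjusted p = 1.53e-05). The rrp6Δ strain also differs from wild type in marker alleles, whose part in this was not tested.

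The other gene, new25, has an unknown product and lies 953 bases from ura4. It had 36.4, 20.1 and 40.2 in med20Δ rrp6Δ, against 449, 563 and 425 in med20Δ, and 755, 785 and 703 in rrp6Δ, against 480, 471 and 457 in wild type. It fell by 3.90 ± 0.25 without Med20 (adjusted p = 7.69e-07), and the difference between the effects was -4.57 ± 0.35 (adjusted p = 1.53e-05). Its neighbour tam14, 333 bases from ura4, had 53.7, 21.9 and 40.2 in med20Δ rrp6Δ, against 164, 428 and 297 in med20Δ, and fell by 2.89 ± 0.36 (adjusted p = 0.000273). Both genes flank ura4, which was expressed in the libraries labelled med20Δ and not in the double deletion, so the ura4 allele and the loss of Rrp6 cannot be told apart for them. SPNCRNA.863, new25 and tam14 kept their calls without Med20 in every fit that left out 1 library and without the 4 libraries that stand apart.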

How the data were processed

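Poly(A)-selected RNA was sequenced from 4 strains, 3 samples each. The submitters' processing notes name Bowtie 0.12.7 and DESeq. No source used here gives the genome build, annotation, read counter or strand setting. Per the file headers, the 3 deposited tables hold, for each mutant against wild type, the mean signal of each strain (counts divided by a size factor and averaged by the authors), the authors' fold change, its log2 value, and p-values. The deposited fold and log2 values served only to narrow high means in the recovery described next, and the authors' p-values were not used.

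Whole counts per library were recovered from the 15 digits of the deposited means (for 125, 125 and 86 genes of med20Δ, rrp6Δ and med20Δ rrp6Δ together with the deposited fold), for 97.1% of med20Δ, 97.4% of rrp6Δ and 96.9% of med20Δ rrp6Δ means and all but 1 wild-type mean of 6888. The lowest unsolved means of the mutants were 10540, 12064 and 10274, so genes that could not be split are abundant ones. Recovery and test were tested on simulated data. Counts were scaled by median ratios over the 12 libraries and tested with limma 3.58.1 (trend, all 4 strains in 1 fit) in R 4.3.3 on log2(value + 1), with Benjamini-Hochberg adjustment over 5633 genes with all 4 deposited means at 10 or more. A gene was called at an adjusted p under 0.05. The plan had foreseen this test if libraries could be recovered. Per-library values are normalised counts, and errors of log2 differences are standard errors. The design speaks of biological replicates but not of separate cultures, so the p-values cover only how far these samples vary, which may be technical.

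The comparison, its members and the gene lists were chosen with earlier results of these data known. Among genes called and not overlapping between the strains, the 8 protein-coding and 8 non-coding genes with the largest difference in each direction were named, with the 6 largest called differences between the rrp6 effects in each direction, up to 4 called members of each list (or the 2 largest where none was called), the Mmi1 targets, and genes that check the strains. Gene names, biotypes, distances and sequences come from RefSeq ASM294v3, whose locus tags matched 6769 of the 6888 identifiers.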

Additional observations from a re-analysis of the deposited data

Results flagged for a closer look

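For 2 genes the effect of losing Rrp6 differed between cells without and with Med20 by a test of the difference itself, among 5633 tested. SPNCRNA.863 had a difference between the effects of 5.24 on the log2 scale (limma adjusted p = 1.53e-05), with all 3 med20Δ rrp6Δ libraries above med20Δ and all 3 rrp6Δ libraries below wild type. For new25 the difference was -4.57 (limma adjusted p = 1.53e-05), with all 3 med20Δ rrp6Δ libraries below med20Δ and all 3 rrp6Δ libraries above wild type. The gene lies next to ura4, which the double deletion lacks, and the part of ura4 in this value was not tested.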

How the results depend on the processing

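The 638 calls without Med20 became 996 with no filter on low values, 377 with all means at 50 or more, 374 with only the 6 libraries compared, 1302 without the 4 libraries that stand apart and 1580 with a term for them; the settings with those libraries were chosen after seeing the data. Calls higher were 543 with a mean of 10 over the 12 libraries, 662 with no filter, 144 at 50 or more, 613 under total counts and 681 with the term. Calls lower were 115 under total counts, 187 under the median protein-coding gene, 123 with only 6 libraries, 781 without the 4 libraries and 899 with the term. With Med20, calls were 125 at 50 or more and 750 with the term. Differences between the effects were 14 at the mean filter, 34 with no filter, 1 at 50 or more and 26 with the term. Differences of deposited means past 1 were 1243 genes with no minimum and 384 at 50 or more, and 124 passed 2.

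Leaving out 1 library gave 240 to 788 calls without Med20, 175 to 414 higher and 65 to 417 lower, 149 to 384 with Med20, and 2 to 7 differences between the effects. The cause was not tested. Of the 93 named genes called, 51 kept their call in all 12 such fits and 8 lost it without the 4 libraries, with all 93 keeping their sign there. SPRRNA.51, a 5.8S rRNA copy that was not called (1.34), had -0.065 to 2.05 with 1 library left out, the lowest without med20Δ replicate 1. No paired analysis was possible because the recovered libraries cannot be tied to the replicate letters of the labels. At this depth no tRNA gene reached the minimum in all 4 means.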
